A study of Mus musculus with 27 samples.

Results

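The cytosolic ribosomal protein genes were followed in microdissected mouse thyroid. They were chosen by name: protein-coding genes whose symbol starts with Rpl or Rps and a digit, together with Rplp0, Rplp1, Rplp2 and Rpsa, leaving out the Rps6k kinases and pseudogenes. The rule gave 86 of the 54532 genes in the count table, 52 named for the large and 34 for the small subunit. One of them, Rps19bp1, carries such a symbol but encodes a protein that binds Rps19.

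The study took tissue by laser capture, in which chosen areas of a section are cut out under a microscope, and made 3′ end libraries with a QuantSeq kit. Proliferative lesions (PL, 9 libraries) came from exposed mice, and normal-looking thyroid beside the lesions (NT, 9 libraries) came from the same 9 mice. Normal thyroid of non-exposed mice (NCT, 9 libraries) came from 9 other mice, and each group held 6 females and 3 males. The labels used here give no dose, strain or age, and none of the groups carries a stated genetic alteration.

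Each cytosolic ribosome is built from a small subunit, which reads the mRNA, and a large subunit, which joins amino acids, and most of their proteins are present once per particle. The mRNAs of mammalian ribosomal proteins start with a run of pyrimidines, the 5′ terminal oligopyrimidine (TOP) tract, through which their translation is controlled together by mTOR signalling. Most of these genes also have many processed pseudogene copies, and loss of single members causes the inherited anaemia known as Diamond-Blackfan anaemia in people.

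The promoter windows of members that changed are shown first, because the start of the transcript is the sequence the family is known for. Windows run from 40 bases before to 20 bases after the RefSeq start of the gene (GRCm38.p6), read 5′ to 3′ on the gene's strand. Capitals mark the longest run of C and T that ends close to the start or after it. A longer run farther before the start, as in Rps4x, is not marked. Rpl13a, Rpl6, Rpl15, Rpl12, Rps2 and Rps16 passed the test in a lesion comparison, while Rpl4, Rps9 and Rps4x were among the members with the lowest fold changes there.
Rpl13a (chr7:45128726-45128785, minus strand): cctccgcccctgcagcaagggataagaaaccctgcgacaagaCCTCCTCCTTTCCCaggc
Rpl6 (chr5:121204461-121204520, plus strand): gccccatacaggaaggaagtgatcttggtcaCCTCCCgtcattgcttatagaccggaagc
Rpl15 (chr14:18270967-18271026, minus strand): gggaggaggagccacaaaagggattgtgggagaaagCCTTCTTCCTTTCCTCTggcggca
Rpl12 (chr2:32961672-32961731, plus strand): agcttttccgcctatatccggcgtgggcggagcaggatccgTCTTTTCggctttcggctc
Rps2 (chr17:24720023-24720082, plus strand): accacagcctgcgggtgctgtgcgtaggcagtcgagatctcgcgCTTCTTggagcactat
Rps16 (chr7:28350649-28350708, plus strand): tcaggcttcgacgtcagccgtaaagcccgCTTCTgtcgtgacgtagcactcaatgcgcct
Rpl4 (chr9:64173347-64173406, plus strand): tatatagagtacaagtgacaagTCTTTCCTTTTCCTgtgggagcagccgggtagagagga
Rps9 (chr7:3704001-3704060, plus strand): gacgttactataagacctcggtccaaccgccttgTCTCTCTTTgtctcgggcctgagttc
Rps4x (chrX:102189372-102189431, minus strand): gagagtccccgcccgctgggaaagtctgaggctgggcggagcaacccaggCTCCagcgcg

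RefSeq windows were matched for 66 members, which have 78 start sites between them. A C at the start followed by 4 more pyrimidines stood in 17.9% of the members' windows, against 2.51% of all 32851 windows. That search used the exact RefSeq start, so a run that begins just after it, as in Rpl13a and Rpl12, did not count. It therefore does not give the share of members whose mRNA has a TOP tract. The letters CTTTCC, searched on the gene's strand within 50 bases of the start, were in 30.8% of the members' windows and 4.69% of all windows. The letters CCGGAAG, searched on both strands of the whole window of 250 bases before to 50 after the start, were in 34.6% and 8.86%. TATAAA, searched on the gene's strand in the 250 bases before the start only, was in 2.56% and 7.59%. The run of 17 pyrimidines in Rpl15 spans the RefSeq start, while the run of 14 in Rpl13a begins just after it. Rpl4, with no called change, also has a marked run of 14, so the marked runs do not separate the called members from the others.

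The libraries held 2923851 to 14148601 counts. Thyroid identity was checked first: all 13 follicular genes were detected, and their summed level was 13058 to 37431 CPM (counts scaled to a common library total with TMM factors) in PL, 13617 to 43607 in NT and 28205 to 63607 in NCT. Tg made up most of these sums, with means of 23344 CPM in PL, 26890 in NT and 39505 in NCT. Gene by gene, 12 of the 13 had positive fold changes in PL against NT (median log2 fold change 0.52), and 1 was called higher. In PL against NCT 12 were positive (median 0.45), with 4 called higher and 1 lower. Other cell types moved with the groups. Summed airway markers spanned 26.5 to 452 CPM in PL, 113 to 6234 CPM in NT and 343 to 5247 CPM in NCT, and in PL against NT 4 of 7 tested airway markers were lower. Of 10 C cell markers, 6 were lower in PL than in NT and 1, Scg5, was higher (882 ± 407 CPM in PL and 343 ± 190.0 CPM in NT). In PL against NCT, 7 C cell markers were lower and 2 were higher, and 3 of 6 fibroblast markers were lower, with sums of 566 to 3011 CPM in PL and 1708 to 2878 CPM in NCT. Summed adipocyte markers were 127 to 1788 CPM in PL and 760 to 6255 CPM in NCT, with none of 9 passing the test. Their part in the results below was not tested, and fewer cells of a type cannot be told apart from less RNA per cell in such tissue. Parathyroid or stomach-type transcripts (Pth or Lipf over 2000 CPM) stood out in 6 libraries. These were replicate 2 of PL, replicates 7 and 9 of NT, and 5, 8 and 9 of NCT, and counts without them are given beside the results.

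The 86 members took 5.72 ± 0.83% of all counts in PL, 5.21 ± 0.48% in NT and 4.85 ± 0.73% in NCT (SD, n = 9 each). On the CPM scale the members summed to 57455 ± 10913 in PL, 50042 ± 3688 in NT and 50287 ± 6210 in NCT. The groups overlapped: single libraries spanned 42376 to 75399 CPM in PL, 42361 to 55726 CPM in NT and 42912 to 59964 CPM in NCT. Between 83 and 85 members were detected in each library. The PL libraries were thus spread more widely than either normal group, with the 3 highest sums of all 27 libraries and the lowest PL sum close to the lowest NT sum. Mitochondrial transcripts took 6.66 ± 1.31% of counts in PL, 7.05 ± 1.3% in NT and 9.00 ± 1.85% in NCT. With those counts left out of the total, the members' share was 6.13 ± 0.87% in PL, 5.60 ± 0.46% in NT and 5.32 ± 0.76% in NCT, in the same order as before.

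**Figure D1:**
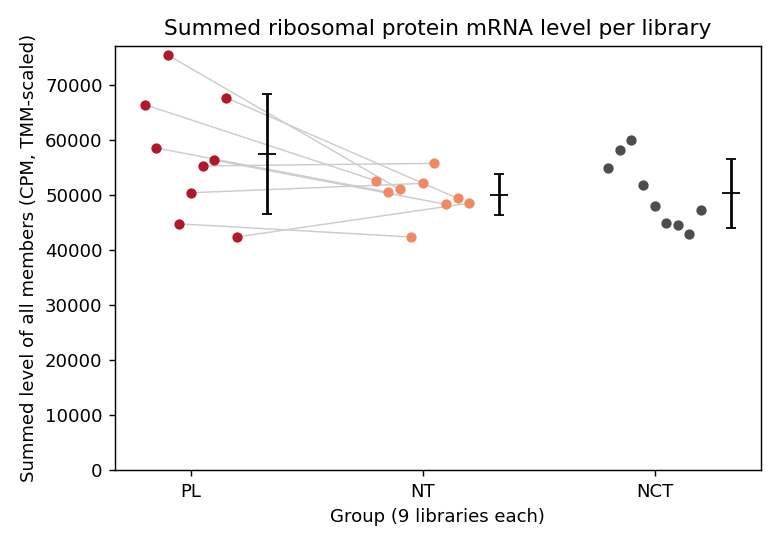
Summed level of the 86 members in each library (vertical axis, TMM-scaled CPM, from 0) for PL, NT and NCT, with lines joining the PL and NT libraries of 1 mouse and a bar for the mean ± SD. PL libraries span 42376 to 75399 CPM and overlap both normal groups.

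In PL against NT, tested within mice, 2 members were higher and none was lower by edgeR's quasi-likelihood test. The 2 are 2.41% of the 83 members that passed the filter on low counts, close to the 1.76% of 14461 tested genes called higher (1.31% were lower), so the count of calls alone does not set the family apart. No member had PL and NT libraries that did not overlap, which held for 0.0692% of tested genes with PL higher and 0.0484% with PL lower. Both called members are large subunit genes, as are 49 of the 83 tested members. The fold changes nevertheless leaned one way: 81 of the 83 were above 0, against 50.2% of all tested genes, and their median log2 fold change was 0.17 with a middle range of 0.10 to 0.23, against 0.00 over all genes. At an unadjusted p under 0.05, 27 members were higher (32.5%, against 8.89% of all tested genes) and none was lower (8.76% of all tested genes). Within a mouse the members tended to move together, with 80 of 83 higher in mouse 1 and 30 in mouse 9. They are therefore not independent, and these counts describe a shared shift across 9 mice. The large and small subunit genes had medians of 0.17 and 0.18. Among 476 other genes with a log2 CPM of 8 or more the median was 0.08 and 5.67% were called higher. Most members reached that level, but some did not, Rpl13a among them.

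**Figure D2:**
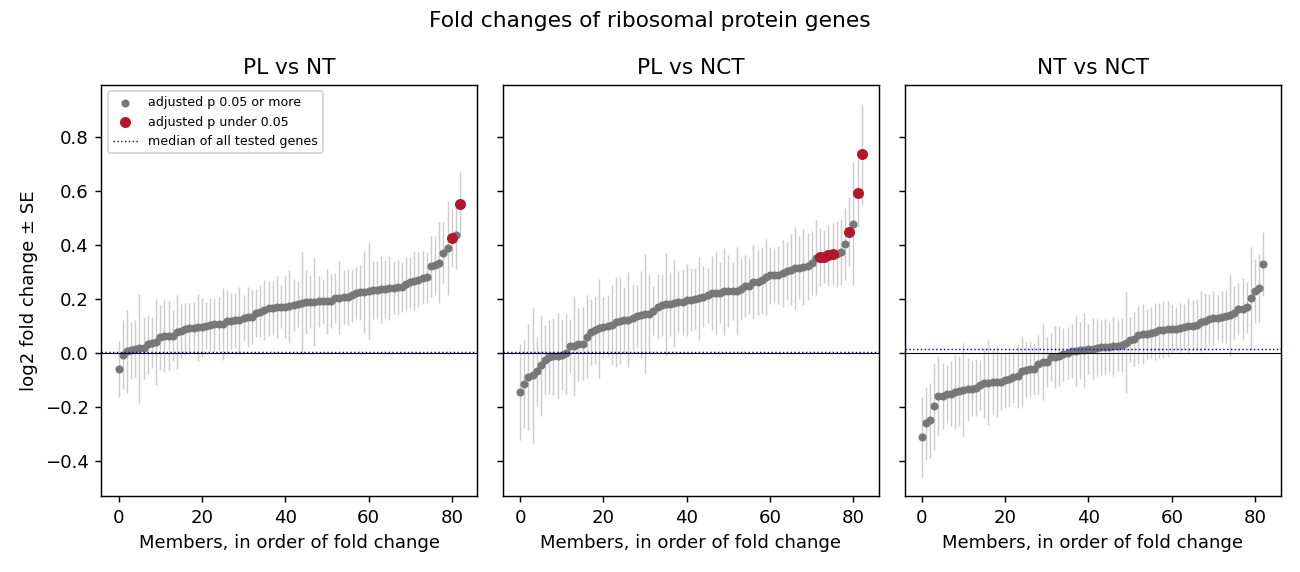
Fitted log2 fold change ± SE of the 83 tested members (vertical axis), ordered within each comparison, with members at an adjusted p under 0.05 in red. In PL vs NT 81 of 83 lie above 0, in PL vs NCT 71 and in NT vs NCT 48.

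The direction differed between mice. The median log2 ratio of the 83 members, PL over NT on CPM + 1, was 0.53 in mouse 3, 0.45 in mouse 8 and 0.34 in mouse 1, with 77, 82 and 80 members higher in the lesion. It was 0.21 in mouse 7, 0.19 in mouse 2 and 0.07 in mouse 4, with 75, 71 and 56 members higher. In mice 5, 6 and 9 it was -0.01, -0.02 and -0.10, and 39, 39 and 30 members were higher. In 6 of 9 mice the family was therefore higher in the lesion than in the tissue beside it, and in 3 it was level or lower. Mouse 9, where members also scattered most widely, was male like mice 2 and 8. The male minus female difference in the log2 fold change had a median of -0.03, and the sex interaction called none of 84 members, with none at an unadjusted p under 0.05. It called 0 of all 16846 tested genes, of which 471 had an unadjusted p under 0.05. The lack of calls is therefore not particular to the members.

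**Figure D3:**
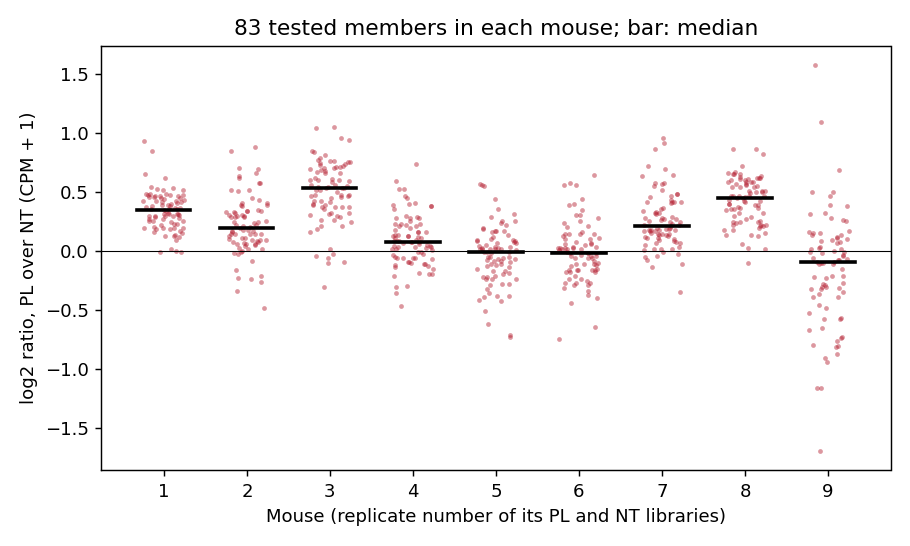
log2 ratio of PL over NT (vertical axis, CPM + 1) for each of the 83 tested members in each of the 9 mice, with a bar at the median. Medians lie between -0.10 in mouse 9 and 0.53 in mouse 3.

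Members varied more between lesions than between normal samples. The median coefficient of variation over the 83 members was 21.2% in PL, 12.7% in NT and 14.03% in NCT, against 32.4%, 29.0% and 29.8% over all tested genes. It was higher in PL than in NT for 77 of 83 members, compared with 61.9% of tested genes. Rpl4, a core protein of the large subunit, was the most variable in PL at 44.2%, and Rps15, of the small subunit, the least at 8.96%. Rpl4 ranged there over 164, 594 and 978 CPM as the lowest, median and highest library.

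Rpl13a, a large subunit protein that also takes part in interferon-driven translational silencing, had the largest fold change of all members in both lesion comparisons. Its level was 36.0, 52.1 and 78.3 CPM in PL (lowest, median and highest), 27.3, 33.4 and 53.1 CPM in NT and 18.7, 31.1 and 56.0 CPM in NCT. These levels are low for the family, in which 78 of the 86 members averaged at least 100 CPM. The groups overlapped, but it was higher in the lesion in 8 of 9 mice. Its log2 fold change was 0.55 ± 0.12 (SE) in PL against NT (edgeR adjusted p = 0.0267) and 0.73 ± 0.19 in PL against NCT (edgeR adjusted p = 0.0128). Exons of Gm45713, Mir5121 and Snord33 overlap it, and whether their reads were counted apart is not given in the sources used here. Such overlap is not particular to Rpl13a, since 47 of the 86 members are without it on either strand. Among members called in a lesion comparison, Rpl6, Rpl12, Rpl15, Rpl23a and Rps2 also have it, while Rps16 does not.

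Rpl6, another large subunit protein, was the other call in PL against NT and was higher in the lesion in 9 of 9 mice. Its lowest, median and highest levels were 745, 984 and 1230.0 CPM in PL and 595, 698 and 971 CPM in NT, so the groups overlapped. The log2 fold change was 0.42 ± 0.11 (SE, edgeR adjusted p = 0.0445). Against NCT, where it averaged 776 ± 114 CPM, Rpl6 did not pass the test (log2 fold change 0.32, edgeR adjusted p = 0.0907). The calls, though not the size of the change, moved with single mice: leaving out mouse 2, 3, 4, 7 or 8 ended both, leaving out mouse 1 or 9 ended that of Rpl6, and DESeq2's test called 4 members. Over the fits without 1 mouse, the log2 fold change of Rpl13a was 0.51 to 0.62 (edgeR adjusted p of 0.0152 to 0.0760) and that of Rpl6 was 0.35 to 0.47 (0.0344 to 0.119). Without the mice of the libraries high in Pth or Lipf, no member was called. The calls over all tested genes in these other fits were not set beside those of the members.

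In PL against NCT, between different mice, 7 members were higher and none was lower. They are 8.43% of the 83 tested members, against 5.45% of 14234 tested genes called higher and 4.62% called lower. Among 446 other genes with a log2 CPM of 8 or more, a level that most but not all members reached, 15.5% were called higher. That is a larger share than of the members, while the median log2 fold change of these other genes was 0.09. Of the 83, 71 had a positive fold change, the median was 0.20, and at an unadjusted p under 0.05 28 were higher (33.7%, against 12.3% of all genes) and none was lower (11.2% of all genes). Of the 7, 5 are large subunit genes, among them Rpl13a, Rpl15, Rpl12 and Rpl23a, and 2 are small subunit genes, Rps2 and Rps16. Of the 83 tested members, 49 are large subunit genes. In all 7 every PL library was above the NCT median, yet no member had groups that did not overlap, against 0.548% of tested genes with PL higher and 0.457% with PL lower. This comparison shares its PL libraries with the one against NT, so the calls of the pair are not independent. As in PL against NT, the members are not independent of each other either.

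Rpl12, which sits at the base of the large subunit's stalk, averaged 676 ± 135 CPM in PL, 533 ± 59.0 in NT and 490.5 ± 78.5 in NCT (SD, n = 9 each). Its log2 fold change against NCT was 0.45 ± 0.13 (edgeR adjusted p = 0.0253). Rpl15, whose human homolog is a Diamond-Blackfan anaemia gene, averaged 611 ± 83.5 CPM in PL, 505 ± 40.7 in NT and 473 ± 39.9 in NCT, a log2 fold change of 0.36 ± 0.10 against NCT (edgeR adjusted p = 0.0218). Its groups came close to separating, with a lowest PL library of 530.0 CPM and a highest NCT library of 532 CPM. Rpl23a (1411 ± 206 CPM in PL and 1093 ± 101 in NCT), Rps2 (609 ± 98.4 and 470 ± 60.1) and Rps16 (677 ± 134 and 520 ± 52.3) had log2 fold changes of 0.36 to 0.37.

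**Figure D4:**
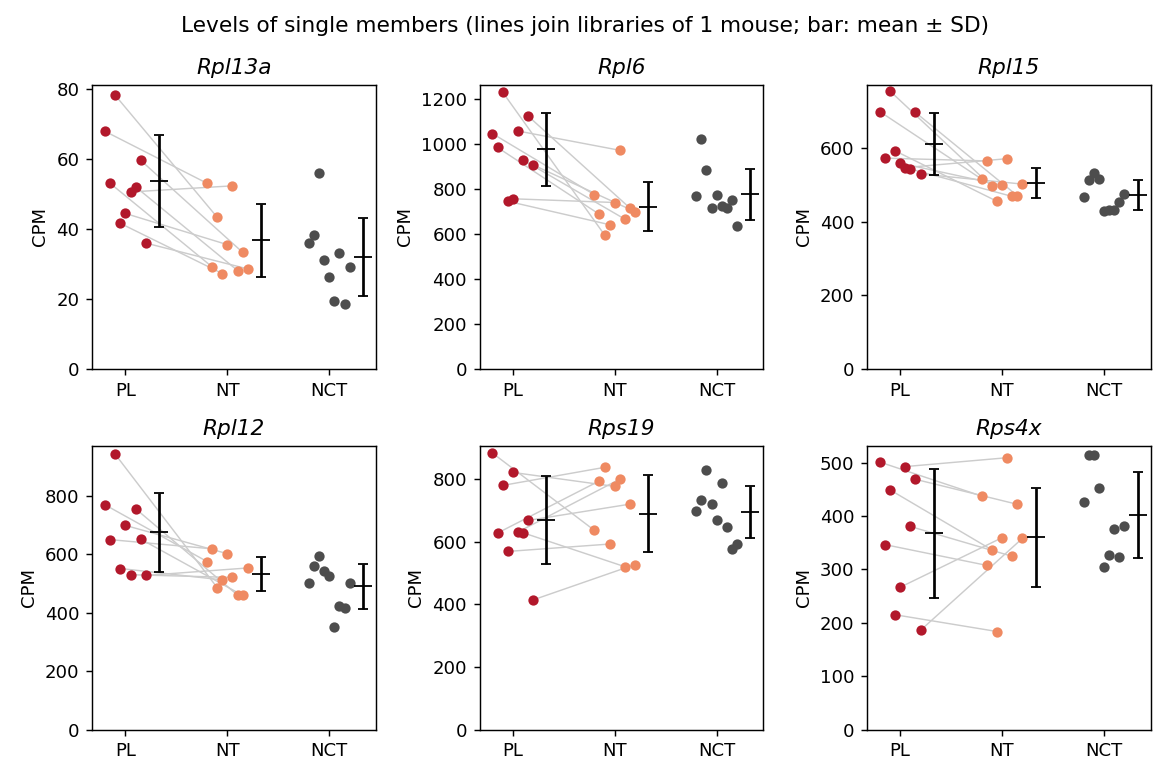
CPM of 6 members in each library (vertical axes, from 0) for PL, NT and NCT, with lines joining the libraries of 1 mouse and bars for the mean ± SD. Rpl13a, Rpl6, Rpl15 and Rpl12 passed a test in a lesion comparison, while Rps19 and Rps4x are among the members with the lowest fold changes.

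The number of calls in PL against NCT moved with the libraries. It was 3 without PL replicate 3 or NCT replicate 6, 4 without PL replicate 1 or 8 or NCT replicate 1 or 8, 12 without PL replicate 5, and 13 without PL replicate 4 or 9. Without the libraries high in Pth or Lipf it was 2, in females alone it was 0, and with the series of mouse numbers as a term it was 1. In 1 sample, NCT replicate 4, the title and the characteristics give different mouse numbers, and with the series taken from the titles the count was 4. Of the 18 libraries, 5 (3 by the titles) were in series found in 1 group only and added nothing to the difference in those fits. Rpl13a and Rpl15 were among those called in all 18 fits that left out 1 library. The counts of this paragraph were not set beside the calls over all tested genes in the same fits. They therefore do not show whether a change is particular to the family.

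At the low end, Rps19, the first gene tied to Diamond-Blackfan anaemia in people, averaged 670 ± 142 CPM in PL, 690 ± 123 in NT and 696 ± 83.04 in NCT (SD, n = 9 each). Its log2 fold changes were -0.06 against NT and -0.07 against NCT, and neither passed the test. Rps4x, a small subunit gene on the X chromosome, had log2 fold changes of -0.01 against NT and -0.14 against NCT, the lowest of all members in the second.

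Some members came close to the threshold. In PL against NCT, Rplp0, Rpl24, Rpl32, Rpl18, Rpsa, Rpl22 and Rpl6 were among those close to it and had edgeR adjusted p-values from 0.0521 to 0.0907, and all had positive fold changes. Rpl7a, of the large subunit, had 351, 476 and 740 CPM in PL (lowest, median and highest) and 294, 414 and 439 CPM in NT. It was higher in the lesion in 8 of 9 mice, with a log2 fold change of 0.37 ± 0.11 (SE, edgeR adjusted p = 0.0873). Rpl24, also of the large subunit, averaged 208 ± 38.0 CPM in PL, 183 ± 30.2 in NT and 155 ± 32.6 in NCT, with a log2 fold change of 0.40 ± 0.13 in PL against NCT (edgeR adjusted p = 0.0543). Rpl17, farther from the threshold, averaged 709 ± 216 CPM in PL and 550 ± 110 CPM in NT and had a log2 fold change of 0.33 ± 0.15 (edgeR adjusted p = 0.258).

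Rpl5 and Rpl11, which with 5S rRNA bind Mdm2 when ribosome assembly is disturbed, showed the wider spread of the lesions without a called change. Rpl5 averaged 1135 ± 272 CPM in PL, 983 ± 105 in NT and 964 ± 135 in NCT, and Rpl11 averaged 985 ± 282 CPM in PL, 872 ± 67.9 in NT and 832 ± 170 in NCT. Rpl3 and Rpl10, both close to the catalytic centre of the large subunit, had log2 fold changes of 0.19 and 0.11 in PL against NT and were higher in the lesion in 8 and 6 of 9 mice. Rps9, a small subunit protein that acts early in assembly, averaged 864 ± 303 CPM in PL, 807 ± 91.2 in NT and 883 ± 146 in NCT, with log2 fold changes of 0.01 against NT and -0.05 against NCT. Its lowest PL library, at 342 CPM, was below every NT and NCT library, and its highest, at 1266 CPM, was above all of them.

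The stalk proteins Rplp0, Rplp1 and Rplp2, which recruit elongation factors, averaged 848, 845 and 869 CPM in PL, 729, 793 and 813 in NT and 649, 817 and 869 in NCT. None passed a test, and Rplp0 came closest at a log2 fold change of 0.37 against NCT (edgeR adjusted p = 0.0521). Rps6, the small subunit protein phosphorylated downstream of mTOR, averaged 648 ± 240 CPM in PL, 524 ± 65.5 in NT and 567 ± 142 in NCT and passed no test. The 17 members whose human homologs are Diamond-Blackfan anaemia genes had medians of 0.18 against NT and 0.22 against NCT, with 1 call, Rpl15, against NCT, where 5.45% of all tested genes were called higher. The 9 members known to bind Mdm2 or to be p53 targets had medians of 0.12 and 0.15 and no call.

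Between the groups without lesions, NT against NCT, no member was called, and only 4 of 14447 genes were (0.00692% higher and 0.0208% lower). DESeq2 called no member either, and at an unadjusted p under 0.05 edgeR had 1 member higher, Rpsa, and 1 lower, Rps24, against 5.60% and 5.98% of all tested genes. No member's groups were without overlap, which held for 0.0208% of tested genes with NT higher and 0.0415% with NT lower. The fold changes lay on both sides of 0, with 48 positive and 35 negative and a median of 0.01, the same as over all genes. Rpsa, a small subunit protein also known as a laminin receptor, averaged 511 ± 105 CPM in NT and 407 ± 46.3 CPM in NCT (log2 fold change 0.33, edgeR adjusted p = 0.283). Rps24 averaged 678 ± 152 CPM in NT and 841 ± 212 CPM in NCT (log2 fold change -0.31, edgeR adjusted p = 0.427). Rpl10a and Rpl24, with log2 fold changes of 0.23 and 0.24, and Rpl36a and Rps27a, with -0.26 and -0.25, were next to them at either end and did not pass. Rps27a, which is made as a fusion with ubiquitin, averaged 900 ± 125 CPM in NT and 1070 ± 294 CPM in NCT. The sex interaction called none of 84 members here, with none at an unadjusted p under 0.05 and a median male minus female difference of 0.18. Of all 16801 tested genes it called 0, and 487 had an unadjusted p under 0.05.

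Some members are minor or tissue-restricted copies of another. Rpl10l had no count in any library, which over all 27 allows up to 0.0161 CPM. Rpl39l had 33 counts in 6 libraries and reached 2.27 CPM, and neither passed the count filter of the main fits. Rpl3l, the form of striated muscle, was too low for the main group comparisons. Of the main fits it entered only the sex interaction, where it did not pass, but it reached 18.7 CPM in NT replicate 4 and 17.0 CPM in NT replicate 8. Those 2 libraries also had the highest sums of skeletal muscle markers, 1643 and 1666 CPM, against at most 521 CPM in the other libraries. The log2 ratios of 5 paralogs to their main copies were compared in the 3 comparisons, and none of the 15 exact permutation tests, two-sided, passed after adjustment (lowest adjusted p = 0.735). Rpl22l1, the paralog of Rpl22, averaged 179 ± 31.6 CPM in PL, 159 ± 25.05 in NT and 156 ± 23.3 in NCT, beside 649 ± 78.4, 589 ± 53.2 and 527 ± 73.9 CPM of Rpl22 in the same groups. Its log2 ratio to Rpl22 was -1.90 ± 0.23 in NT and -1.75 ± 0.13 in NCT, and that difference had a raw p of 0.106 by the exact permutation test. Rps27l is known as a p53 target, and its log2 ratio to Rps27 was -2.36 ± 0.44 in PL and -2.34 ± 0.38 in NT.

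Other genes with TOP tracts, ribosome assembly genes and regulators were read beside the family. Of 16 other TOP mRNAs, Eef1a1, which brings aminoacyl-tRNA to the ribosome, rose in PL against NT (369 ± 62.4 and 267 ± 72.3 CPM, log2 fold change 0.49 ± 0.10 SE, edgeR adjusted p = 0.0211), and the list's median was 0.21. It was the only call of the 16, where 1.76% of all tested genes were called higher. Against NCT, where that share was 5.45%, 2 of the 16 were called: Hnrnpa1, an RNA-binding protein, and Tpt1, with log2 fold changes of 0.57 and 0.51. Of 30 ribosome assembly genes none passed in PL against NT (median 0.09), and 2 of the 30 passed against NCT, a share close to that of all genes. These were Nhp2 and Heatr1, both of which act in rRNA maturation or transcription, with log2 fold changes of 0.64 and 1.23. Of the mTOR and Myc regulators, 14 tested against NT and 13 against NCT, none passed, with medians of 0.02 and -0.08. No gene of these 3 lists passed in NT against NCT. Rack1 and Fau, ribosomal proteins outside the naming rule, had log2 fold changes of 0.28 and 0.16 in PL against NT and did not pass.

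Counts may be split between members and their copies. The table has 300 rows named as ribosomal protein pseudogenes, 256 of them with counts, and 13 members had fewer counts than their own pseudogene rows. These rows came to 39.9 ± 2.83% of the member counts in PL, 39.5 ± 2.60% in NT and 36.8 ± 4.35% in NCT. Of the summed counts, the pseudogene rows held 63.7% for Rps2, 55.3% for Rpl15, 46.7% for Rps16, 17.9% for Rpl13a and 0.383% for Rpl12, and Rpl6 had no such row. The levels of members with many copies are therefore uncertain. Adding the rows to their members left Rpl13a and Rpl6 called in PL against NT and all 7 members called in PL against NCT, where 13 in all then passed.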

How the data were processed

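The authors deposited raw read counts per gene for 27 libraries; the values are whole numbers with differing totals. STAR, featureCounts, DESeq2 and GRCm38 are named without roles, per the submitters' processing notes, while the annotation, the strand setting and the handling of multi-mapped reads and identifiers remain not given in the sources used here. Rows were named with GENCODE M21 (54409 of 54532). Genes passing filterByExpr (minimum count 10) were tested with edgeR 4.0.16 (R 4.3.3; TMM, robust quasi-likelihood, Benjamini-Hochberg adjusted p under 0.05 over all tested genes). PL vs NT used mouse as a block, since the labels give both libraries the same mouse; deviations of the pairs correlated at -0.00971 to 0.255. The other comparisons had no covariate. CPM use TMM factors over all libraries. Paralog ratios used exact permutation tests. Replicates are separate mice. Alternatives included DESeq2 1.42.0 and limma 3.58.1. Named members were those called, the 5 highest and 5 lowest fold changes in each comparison, and a fixed set, of which those bearing on a result are printed. The members and lists were chosen with earlier results of these data known. The fit was tested on simulated data. The values of some members are not reported here.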

Additional observations from a re-analysis of the deposited data

Results flagged for a closer look

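In 4 of 114 groups of 9 libraries, 1 library stood far from the rest by Dixon's criterion, where chance gives about 1 in 20. Rpl36al, a minor copy of Rpl36a, was 135 CPM in PL replicate 9, with the next at 90.4. In NT replicate 6 both Rpl6, at 971 CPM, and Rplp0, at 958 CPM, were highest, with the next libraries at 774 and 758. Rpl3l was 7.21 CPM in NCT replicate 2, with the next at 2.43.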

How the results depend on the processing

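No member was called lower in any comparison, and none was called in NT vs NCT, under any alternative run. The members' median log2 fold change was 0.14 to 0.20 across settings and 0.13 to 0.20 with 1 mouse left out in PL vs NT, and 0.17 to 0.26 and 0.15 to 0.24 in PL vs NCT. These ranges leave out scaling by the member sum, which sets the members' median near 0 by construction. The number called higher in PL vs NT was 2. It was 1 with DESeq2 size factors, upper-quartile factors, the 10 most abundant other genes left out or no replicate block, and 4 with DESeq2's Wald test. It was 0 in females only, without the mice of libraries high in Pth or Lipf, or with library size from the members. That last scaling holds the members as a group near 0, though not each member. Leaving out 1 mouse gave 0 to 3. In PL vs NCT it was 7, and 12 with DESeq2, 13 with limma-voom or pseudogene rows added, 14 with all 27 libraries, 2 without libraries high in Pth or Lipf, 1 with the mouse number series as a covariate (4 with the series from the titles) or with library size from the members, and 0 in females only. Leaving out 1 library gave 3 to 13. These member counts were not set beside the calls over all tested genes in the same fits. Whether a change in them is particular to the family was not tested. With the 10 most abundant other genes out of the total, the members' share was 6.77% in PL, 6.21% in NT and 6.05% in NCT. Scaling by the member sum, adding pseudogene rows and the series from the titles were chosen after seeing the data. The cause of the other changes was not tested. Rpl10l, Rpl39l and Rpl3l were too low for the group comparisons with the main filter.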
